A study of Saccharomyces cerevisiae with 16 samples.

Results

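The 8 messenger RNAs described here have been reported in budding yeast to start translation internally, without the usual cap-dependent entry of the ribosome, and were followed after depletion of the cap-binding protein eIF4E. They were the genes FLO8 (YER109C), GPR1 (YDL035C), BOI1 (YBL085W), MSN1 (YOL116W), NCE102 (YPR149W), GIC1 (YHR061C), YMR181C and URE2 (YNL229C), listed by name from such reports, with earlier results of these data known. All 8 were present among the 7126 genes of the RNA files, the 5647 of the 8 h footprint files and the 6696 of the 1 h footprint files, and all 8 passed the filter on low counts in every comparison. Every culture was strain BY4742, a haploid yeast of mating type alpha, with eIF4E fused to an auxin-inducible degron (genotype eIF4E-AID), a tag through which the auxin indole-3-acetic acid (IAA) sends a protein to degradation. IAA at 500 µM, or DMSO as its solvent alone, was given in rich medium, with harvest after 8 h or after 1 h. Total mRNA levels (RNA) came from RNA-seq, and the mRNA pieces protected by ribosomes (footprints) from ribosome profiling, which gave 16 libraries in 8 groups of 2. Duplicates are labelled as biological replicates, but separate cultures are not mentioned. The p-values thus reflect the variation among these libraries only, part of which may be technical. Every library carried the degron, so the effect of the auxin itself and that of losing eIF4E cannot be told apart. The 8 h and 1 h libraries were also prepared differently. RNA libraries were made with rRNA depletion at 8 h and with poly(A) selection at 1 h. Footprint libraries were made with CircLigase I at 8 h and CircLigase II at 1 h, among other changes. Time and preparation thus cannot be told apart.

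Most yeast mRNAs are translated after eIF4E binds the cap and, through the scaffold protein eIF4G, brings the small ribosomal subunit, which then scans to the start codon. Internal initiation places the ribosome on the mRNA without the cap. For the first 7 genes it was reported in connection with starvation and invasive growth, where A-rich stretches before the start codon can bind the poly(A)-binding protein Pab1, and for URE2 it was reported at a start codon inside the coding sequence that gives a shorter protein.

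The letters before the start codons differed between the members, as read from the RefSeq reference of build R64, which is the build the submitters' processing notes name. In the 100 bases before each start codon the 30-base window richest in A was taken. Transcript start sites were not used here, so the windows are given as positions before the coding sequence and may reach beyond the mRNA. The windows of GPR1, YMR181C and NCE102 are shown because they held the longest runs of A, and that of GIC1 because it held the fewest A. Capitals mark runs of at least 4 A.
GPR1 (chromosome IV, minus strand, chrIV:392096-392125): accAAAAAAAAAAAAcgacaaacaagtgat
YMR181C (chromosome XIII, minus strand, chrXIII:624081-624110): taattctcctgatttcagaacAAAAAAAAA
NCE102 (chromosome XVI, plus strand, chrXVI:829846-829875): atcttcaataagAAAAAtcggttAAAAAAA
GIC1 (chromosome VIII, minus strand, chrVIII:222479-222508): gcttattaattgtgtgataaattctaaagg

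GPR1 had a run of 12 A in its 100 bases, and 1.37% of 6001 protein-coding genes had a run at least as long. The run of 9 A in YMR181C ended directly at the start codon, and 4.88% of genes had one at least as long. NCE102 had a run of 7 A (13.2% of genes), FLO8 and BOI1 had 6 A each (23.6%), MSN1 had 4 A (74.5%), and GIC1 and URE2 had 3 A each (96.2%). The median gene had a run of 4 A and 16 A in its richest window. By content of the richest window the order was different, with 20 A in GPR1 (9.17% of genes had as many or more), 19 A in MSN1 (15.6%), 17 A in NCE102 and in FLO8 (37.5%), 15 A in BOI1 and in YMR181C (64.8%), 11 A in URE2 (96.2%) and 10 A in GIC1 (98.1%). The letters AAAAAAAA lay on the coding strand of 2 members, GPR1 and YMR181C, and of 7.68% of genes, and on the other strand (TTTTTTTT) of 1 member and of 3.53% of genes. The other 6 members had no run of 8 A in this window on the coding strand.

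A pair of stretches inside coding sequences is shown because they bear on what a footprint count of these genes can hold. Capitals mark an in-frame stop codon in FLO8 and an in-frame ATG codon in URE2, counted in codons from the annotated start.
FLO8, stop codon at codon 142 (chromosome V, minus strand, chrV:377174-377203): ttgtatgaatggTAGcaaatattctgggac
URE2, ATG at codon 94 (chromosome XIV, minus strand, chrXIV:219905-219934): gcattttcggatATGagtcacgtggagtat

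FLO8, which encodes a transcription factor needed for flocculation and invasive growth, is annotated as a pseudogene in the reference, whose laboratory background carries the stop codon shown, TAG at codon 142 of 800. Only 17.6% of its frame lies before that codon. The footprint counts cover 20 codons fewer than the frame of each member, stop codon included. If all 20 lie at the start of a gene, which was not established here, 121 of the 780 counted codons of FLO8 precede the stop. In URE2 the ATG at codon 94 is the first in-frame ATG after the first 10 codons. On the same assumption 73 of the 335 counted codons of URE2 precede it. The files give 1 total per gene, so footprints before and after these codons could not be separated.

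The other members had single uninterrupted coding sequences in build R64, each of 1 exon and none overlapping another annotated gene. They were GPR1 (chromosome IV, 389172 to 392057), BOI1 (chromosome II, 63876 to 66818), MSN1 (chromosome XV, 99809 to 100957), NCE102 (chromosome XVI, 829918 to 830439), GIC1 (chromosome VIII, 221534 to 222478), YMR181C (chromosome XIII, 623616 to 624080) and URE2 (chromosome XIV, 219137 to 220201), beside FLO8 (chromosome V, 375215 to 377614). Of the 28-base words in each gene, 98.67% to 100% occurred once in the genome, so exact repeats of that length were few. Copies with mismatches were not searched for.

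Total counts in the 8 h libraries ranged between 10182227 and 15072930 for RNA and between 1766499 and 9985060 for footprints. In the 1 h libraries they ranged between 32096327 and 50294053 for RNA and between 2849721 and 8010138 for footprints, the shallowest of all being replicate 1 of the 8 h DMSO footprints. The members' depth differed widely. NCE102 had 1107 to 5325 footprint counts in a library, whereas FLO8 had 6 to 50 and YMR181C 6 to 100. RNA counts of the 4 marker genes deleted in BY4742 (URA3, LYS2, LEU2, HIS3) did not exceed 37, with 0 footprint counts, and 3 genes specific to alpha cells had at least 3186 RNA counts. The 4 genes specific to a cells stayed low but summed to 17.9 to 21.6 CPM (the usual library-scaled count, here on TMM-adjusted totals) in 8 h IAA RNA, against 7.64 to 9.60 CPM in 8 h DMSO RNA, and to 18.0 to 20.6 CPM in 1 h IAA RNA, against 8.65 to 9.64 CPM in 1 h DMSO RNA. Most of that difference lay in STE2, the alpha-factor receptor gene, which averaged 12.02 ± 0.604 CPM with IAA and 4.28 ± 0.278 CPM with DMSO at 8 h, and 14.7 ± 1.32 CPM with IAA and 4.97 ± 0.0246 CPM with DMSO at 1 h (SD, n = 2 each). MFA1 averaged 4.20 ± 0.936 CPM with IAA and 1.17 ± 0.0749 CPM with DMSO at 8 h. BAR1 averaged 2.36 ± 0.889 CPM with IAA and 2.29 ± 1.38 CPM with DMSO at 8 h, and MFA2 1.22 ± 0.209 CPM with IAA and 0.873 ± 0.21 CPM with DMSO. In footprints the 4 genes summed to 6.06 to 6.16 CPM with IAA, against 0.631 to 1.84 CPM with DMSO at 8 h, and to 0.514 to 1.65 CPM with IAA, against 1.48 to 1.61 CPM with DMSO at 1 h. Their part in the values below was not tested. The log2 fold change of RNA of CDC33, the gene of eIF4E, was -0.55 at 8 h and -0.39 at 1 h, with adjusted p-values of 0.0391 and 0.0349, which is no check of the degron because it acts on the protein.

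Calls among the 8 mRNAs ran in both directions. At 8 h of IAA the RNA of URE2 rose, and no member was called in footprints or in translation efficiency, the change of footprints beyond that of RNA. At 1 h the RNA of URE2 and MSN1 rose and that of NCE102, GPR1 and GIC1 fell, while NCE102, a plasma membrane protein gene, was the only member to rise in footprints (1.3-fold) and in translation efficiency (1.86-fold). A call here is an adjusted p under 0.05 in edgeR's quasi-likelihood test with Benjamini-Hochberg adjustment over all genes tested.

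Each count of members called is given beside the share of all genes called in the same comparison. In RNA at 8 h, 1 of 8 was higher (9.03% of all genes tested were called higher) and 0 of 8 lower (8.61%), against 17.6% of all genes in either direction, and DESeq2 called 0. In RNA at 1 h, 2 of 8 were higher (21.9% of all genes) and 3 of 8 lower (20.9%), so 5 of 8 in either direction (42.8%). In footprints at 8 h, 0 of 8 were called in either direction (24.1% of all genes), 0 had an unadjusted p under 0.05 and DESeq2 called 0. In footprints at 1 h, 1 of 8 was higher (11.1% of all genes) and 0 of 8 lower (14.9%, or 26.0% in either direction). In translation efficiency at 8 h, 0 of 8 were called (5.48% of all genes in either direction, 3.45% higher and 2.02% lower), 2 had an unadjusted p under 0.05, YMR181C and URE2, and DESeq2 called 0. In translation efficiency at 1 h, 1 of 8 was higher (9.88% of all genes) and 0 of 8 lower (10.4%, or 20.3% in either direction).

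Separation of the libraries was counted in the same way. In RNA at 8 h both IAA libraries lay above both DMSO libraries for 4 members (32.5% of all genes) and below them for 2 (30.3%). In RNA at 1 h they lay above for 2 (38.6%) and below for 4 (36.6%). In footprints at 8 h they lay above for 3 (31.0%) and below for 3 (30.2%), and at 1 h above for 4 (31.3%) and below for 1 (30.2%).

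The medians over the 8 members lay on both sides of those over all genes. The median log2 fold change, IAA over DMSO, was 0.15 for RNA at 8 h (0.01 over all genes tested) and -0.24 for RNA at 1 h (0.01). It was -0.15 for footprints at 8 h (0.01) and 0.15 for footprints at 1 h (0.01). For translation efficiency it was -0.13 at 8 h (-0.02) and 0.12 at 1 h (-0.01). Scaling by total counts alone moved the median of all genes by 0.27 for footprints at 8 h, 0.22 for RNA at 1 h and 0.18 for footprints at 1 h, so changes below are relative to the other genes of a library.

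**Figure D1:**
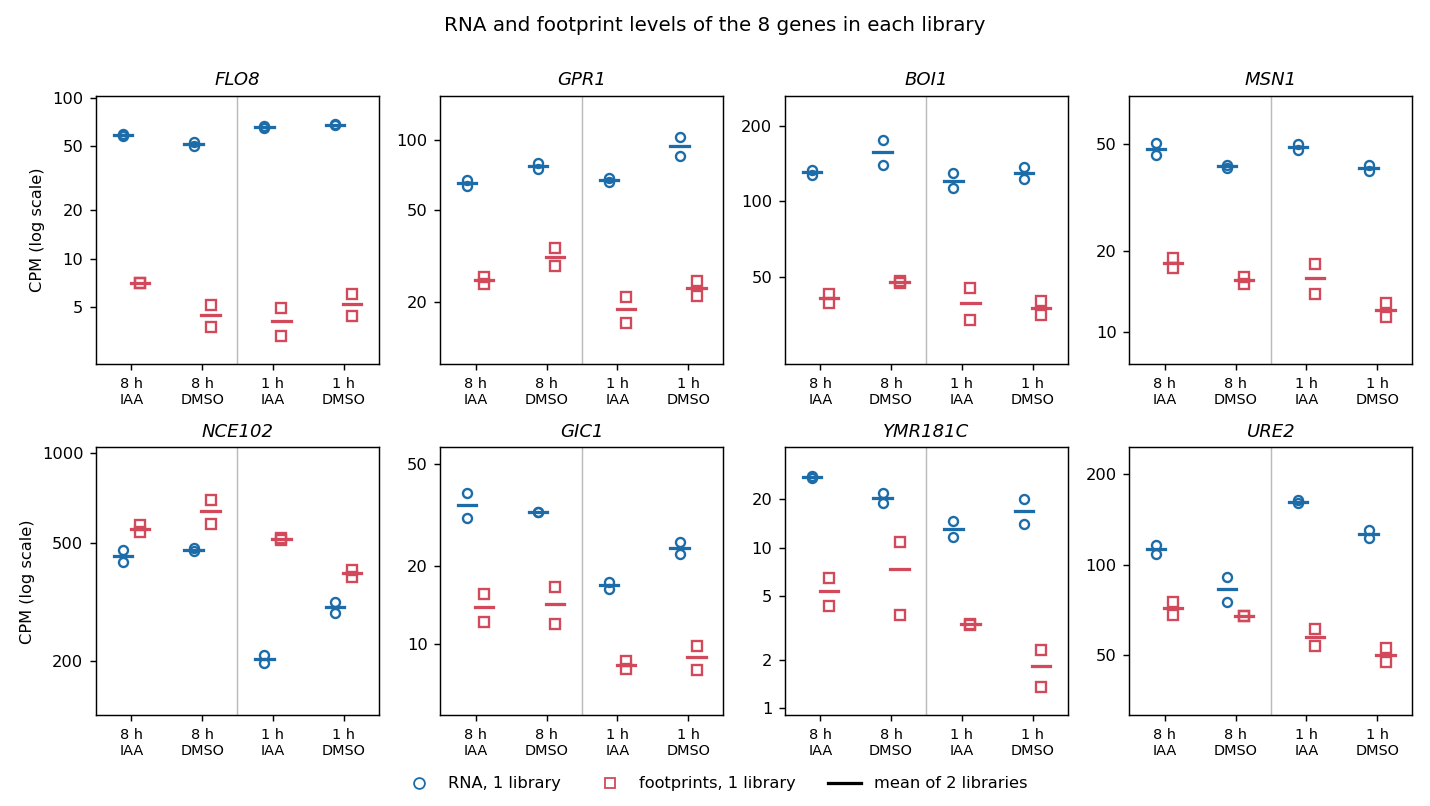
Level of each of the 8 genes in each library, in CPM (vertical log axis) for RNA (blue circles) and footprints (red squares), by time and agent; short bars are means of 2 libraries. The footprint points of NCE102 lie at 519 and 509 CPM in 1 h IAA libraries, above both 1 h DMSO libraries, while its RNA points lie below them.

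NCE102 encodes a protein of the eisosome, a furrow of the plasma membrane, and was the most abundant member. At 8 h it had no called change. Its RNA was 431 and 474 CPM with IAA, against 479.8 and 468 CPM with DMSO, and the groups overlapped (log2 fold change -0.07 ± 0.13, adjusted p = 0.753). Its footprints were 542 and 574 CPM with IAA, against 698.5 and 577 CPM with DMSO. Both IAA libraries lay below both DMSO libraries, the nearer of which was 577 CPM, and the difference did not pass the test (-0.19 ± 0.12, adjusted p = 0.273, and 0.09 under total-count scaling). Translation efficiency had a log2 fold change of -0.17 ± 0.18 (adjusted p = 0.621), with a 95% interval of -0.51 to 0.18.

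At 1 h NCE102 was called in RNA, in footprints and in translation efficiency. Its RNA was 196.5 and 210.2 CPM in IAA libraries, against 291 and 317 CPM in DMSO libraries. Both IAA libraries lay below both DMSO libraries, and the RNA fell by 0.58 on the log2 scale (SE 0.08, n = 2 per group, adjusted p = 0.00338). Its footprints at 1 h were 519 and 509 CPM with IAA, against 406 and 383 CPM with DMSO. Here both IAA libraries lay above both DMSO libraries, and footprints rose by 0.38 ± 0.06 (log2, ± SE, adjusted p = 1.22e-06). With lower RNA and higher footprints, translation efficiency rose by 0.89 ± 0.11 (log2, adjusted p = 0.000679), and the ratio of mean footprint CPM to mean RNA CPM was 2.53 with IAA, against 1.299 with DMSO. These 3 calls held under each alternative setting and without each single library, with translation efficiency between 0.84 and 0.98 and RNA between -0.64 and -0.36, the smallest change being that under total-count scaling.

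The difference between the times was itself tested, as the interaction of agent and time. For NCE102 footprints the IAA effect at 8 h minus that at 1 h was -0.55 ± 0.13 (log2, adjusted p = 0.00768), and for translation efficiency -1.08 ± 0.21 (adjusted p = 0.0109). It was the only member called in either, so 1 of 8 members was lower in footprints, where 4.89% of all genes were lower, 8.05% higher and 12.9% either. In translation efficiency 1 of 8 was lower, where 1.64% of all genes were lower, 1.51% higher and 3.15% either. In RNA 0 of 8 members were called (1.44% of all genes in either direction, 0.946% higher and 0.496% lower), 3 had an unadjusted p under 0.05 (NCE102, GIC1 at 0.57 ± 0.18 and YMR181C at 0.81 ± 0.26), and DESeq2 called 1, NCE102 (0.51, adjusted p = 0.0106, against 0.50 ± 0.15 and 0.149 in edgeR). The footprint call was lost without replicate 1 (-0.53, adjusted p = 0.0708) or replicate 2 (-0.57, adjusted p = 0.0529) of the 1 h IAA footprints. The translation efficiency call was lost without replicate 2 of the 1 h DMSO footprints (-1.04, adjusted p = 0.0565) or replicate 1 of the 1 h IAA footprints (-1.075, adjusted p = 0.0519).

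A further 2 eisosome genes were called in RNA, footprints and translation efficiency at 1 h in the same directions as NCE102. PIL1 and LSP1, which encode the main coat proteins of the eisosome, fell in RNA by 0.78 and 0.58, rose in footprints by 0.37 and 0.20 (adjusted p = 1.09e-06 and 0.0161) and rose in translation efficiency by 1.09 ± 0.11 and 0.72 ± 0.11 (log2, adjusted p = 0.000418 and 0.00172). Of the 10 eisosome genes listed beside NCE102, RNA at 1 h was higher in 1, SLM1 (0.45, 21.9% of all genes), and lower in 4 (20.9%). Of 9 tested in footprints at 1 h, 3 were higher (11.1%) and 0 lower (14.9%). Translation efficiency at 1 h was higher in 3 (9.88%), the third being SEG1 (0.50 ± 0.15, adjusted p = 0.0336), and lower in 0 (10.4%). Its values were positive in 6 of 10, and SUR7 (-0.16), SLM1 (-0.39) and PKH1 (-0.44) were among the negative ones. The share of all genes called in RNA, footprints and translation efficiency in these directions was not computed. At 8 h it was called in 0 of 10 (5.48% of all genes), with PIL1 at 0.55 ± 0.17 (adjusted p = 0.0694) and LSP1 at 0.09 ± 0.16 (adjusted p = 0.783). The difference between the times passed for PIL1 in footprints (-0.37 ± 0.12, adjusted p = 0.0444) and for none of the 10 in translation efficiency. FHN1, the paralog of NCE102, had too few footprint counts to enter the footprint tests.

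**Figure D2:**
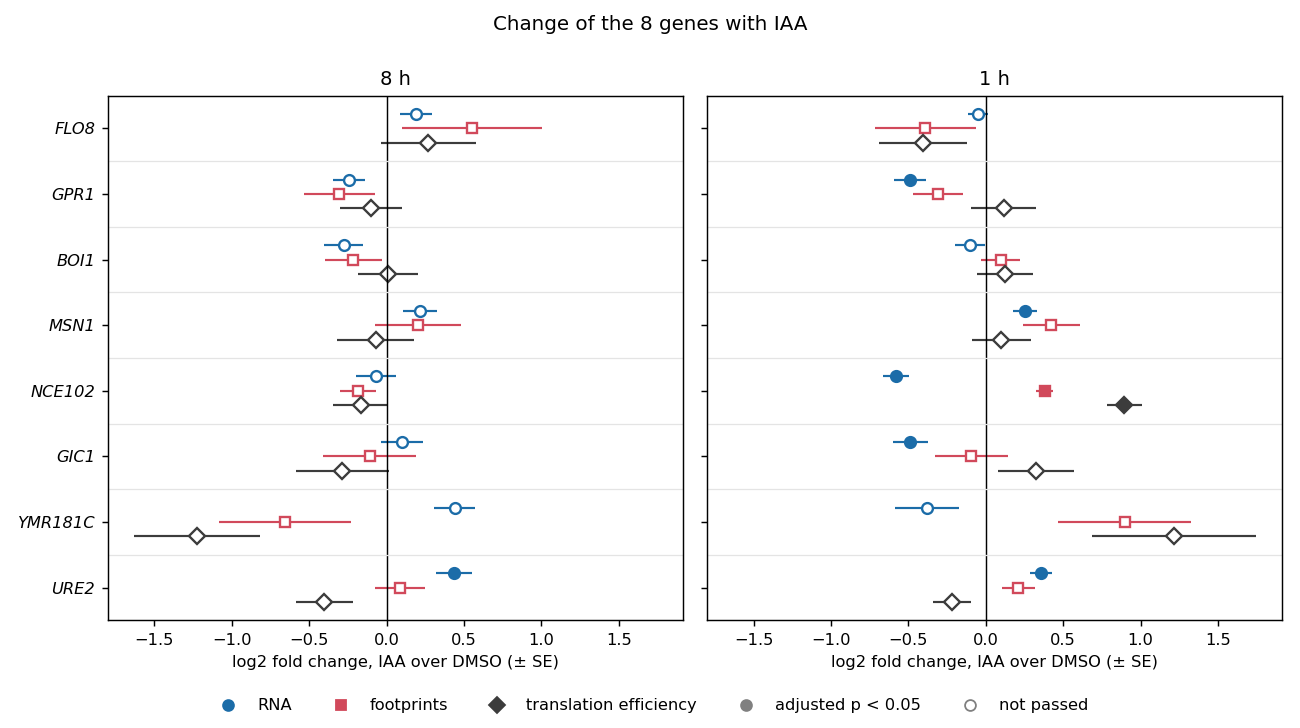
Log2 fold change, IAA over DMSO, with its SE (bars) for RNA (circles), footprints (squares) and translation efficiency (diamonds) of the 8 genes at 8 h (left) and 1 h (right); filled symbols passed an adjusted p of 0.05. NCE102 at 1 h is the only gene with all 3 symbols filled, at -0.58, 0.38 and 0.89.

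GPR1, FLO8 and MSN1 belong to invasive growth signalling. GPR1 encodes a glucose-sensing receptor of the plasma membrane that acts upstream of cyclic AMP, and FLO8 and MSN1 encode transcription factors that act in invasive growth. Their RNA did not move together at 1 h, when that of GPR1 fell, that of MSN1 rose and that of FLO8 was not called.

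GPR1 RNA at 8 h was 67.5 and 63.7 CPM with IAA, against 75.2 and 79.8 CPM with DMSO (-0.24 ± 0.10, adjusted p = 0.142), and its 8 h footprints measured 25.8 and 23.95 CPM with IAA, against 34.1 and 28.7 CPM with DMSO (-0.30 ± 0.23, adjusted p = 0.362). Its RNA at 1 h was 68.7 and 66.0 CPM with IAA, against 85.25 and 104 CPM with DMSO. Both IAA libraries lay below both DMSO libraries, and the 1 h RNA fell by 0.49 ± 0.10 on the log2 scale (adjusted p = 0.0119), a call that total-count scaling ended (-0.27, adjusted p = 0.101). Its footprints at 1 h were 21.1 and 16.2 CPM with IAA, against 21.2 and 24.6 CPM with DMSO, and this difference missed the threshold (log2 fold change -0.31 ± 0.16, adjusted p = 0.152). In RNA and footprints at both times the IAA libraries lay below the DMSO libraries, narrowly so in the 1 h footprints. The translation efficiency of GPR1, the member with the longest run of A before its start codon, was not called (-0.10 ± 0.20 at 8 h and 0.12 ± 0.21 at 1 h).

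MSN1 libraries with IAA lay above those with DMSO in RNA and footprints at both times, and 1 of these 4 differences passed. At 8 h RNA was 45.5 and 50.5 CPM with IAA, against 42.0 and 40.8 CPM with DMSO (0.22 ± 0.11, adjusted p = 0.210), and footprints were 17.4 and 18.9 CPM with IAA, against 15.1 and 16.05 CPM with DMSO (0.20 ± 0.28, adjusted p = 0.657). Its RNA at 1 h was 49.99 and 47.6 CPM with IAA, against 39.9 and 41.85 CPM with DMSO, a rise of 0.25 ± 0.08 (log2, adjusted p = 0.0376). This call was lost with DESeq2 (0.24, adjusted p = 0.0834) and without any single library of the 4 (0.20 to 0.29). For footprints the 1 h levels were 13.8 and 18.0 CPM with IAA, against 11.4 and 12.8 CPM with DMSO (0.42 ± 0.185, adjusted p = 0.0857, and 0.61 with an adjusted p of 0.0111 under total-count scaling). Translation efficiency was -0.07 ± 0.25 at 8 h and 0.10 ± 0.19 at 1 h, neither of which passed.

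FLO8 was measured on few footprints. They were 38 and 50 counts in the 8 h IAA libraries, against 6 and 48 in the 8 h DMSO libraries, and all stayed at 50 or fewer. As levels, footprints at 8 h were 7.09 and 7.04 CPM with IAA, against 3.79 and 5.205 CPM with DMSO. The IAA libraries lay above the DMSO libraries, with a log2 fold change of 0.55 ± 0.45 (adjusted p = 0.413). At 1 h footprints were 4.94 and 3.34 CPM with IAA, against 6.045 and 4.43 CPM with DMSO, and overlapped (-0.39 ± 0.32, adjusted p = 0.408, and -0.67 to -0.10 without single libraries). FLO8 RNA was 58.2 and 60.0 CPM with IAA, against 53.1 and 50.45 CPM with DMSO at 8 h (0.19 ± 0.10, adjusted p = 0.228), and 67.2 and 64.55 CPM with IAA, against 68.6 and 67.75 CPM with DMSO at 1 h (-0.05 ± 0.065, adjusted p = 0.565, and 0.17 under total-count scaling). Translation efficiency was 0.27 ± 0.30 at 8 h (adjusted p = 0.640) and -0.40 ± 0.29 at 1 h (adjusted p = 0.382). None of these passed.

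Of 20 other genes of invasive growth signalling, RNA at 8 h was higher in 3 (9.03% of all genes) and lower in 4 (8.61%), and RNA at 1 h higher in 3 (21.9%) and lower in 6 (20.9%). At 1 h the 3 with the smallest adjusted p were STE12, the MAP kinase pathway's transcription factor (0.65), BCY1, the inhibitory subunit of protein kinase A (-0.65), and STE20, a kinase shared with the polarity machinery (-0.53). Of the 18 tested in footprints, 1 was higher and 2 lower at 8 h (24.1% of all genes in either direction), and 1 was higher and 3 lower at 1 h (26.0%). In translation efficiency BCY1 rose at 8 h (0.95 ± 0.19, adjusted p = 0.0107) and at 1 h (0.77 ± 0.11, adjusted p = 0.00135), STE7, a kinase of the same MAP kinase pathway, fell by 0.85 and 0.82, and STE12 fell at 1 h by 1.09 ± 0.12 (adjusted p = 0.000491). STE20 rose at 1 h (0.39), and the other genes of this list were not called in translation efficiency, so 2 of 20 were called at 8 h (5.48% of all genes) and 4 of 20 at 1 h (20.3%). The 20 include FLO11 and MGA1, which had too few footprints for the footprint tests.

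BOI1 and GIC1 act in bud polarity. Boi1 binds the scaffold Bem1 at the site of growth, and Gic1 is an effector of the GTPase Cdc42. GIC1 RNA at 8 h was 30.9 and 38.6 CPM with IAA, against 32.4 and 32.5 CPM with DMSO (0.10 ± 0.14, adjusted p = 0.651). Its footprints at 8 h were 12.1 and 15.6 CPM with IAA, against 11.99 and 16.6 CPM with DMSO (-0.11 ± 0.30, adjusted p = 0.839, and 0.15 under total-count scaling). Both 8 h sets overlapped. GIC1 RNA at 1 h was 17.35 and 16.4 CPM with IAA, against 25.0 and 22.4 CPM with DMSO. The libraries did not overlap and the RNA fell by 0.49 ± 0.11 (log2, adjusted p = 0.0166), a call that ended with total-count scaling (-0.27, adjusted p = 0.107) or without DMSO replicate 1 (-0.41, adjusted p = 0.0817). Its footprints at 1 h overlapped, at 8.57 and 7.97 CPM with IAA, against 7.93 and 9.84 CPM with DMSO (-0.09 ± 0.24, adjusted p = 0.823, and 0.09 under total-count scaling). Translation efficiency was -0.28 ± 0.30 at 8 h and 0.32 ± 0.25 at 1 h, and neither passed.

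BOI1 had no called change. Its RNA at 8 h was 133 and 128 CPM with IAA, against 139.9 and 176 CPM with DMSO. The IAA libraries lay below the DMSO libraries (-0.28 ± 0.13, adjusted p = 0.166), and the difference passed only without DMSO replicate 1 (-0.42, adjusted p = 0.0392). For its footprints the 8 h levels were 42.75 and 39.2 CPM with IAA, against 48.0 and 47.2 CPM with DMSO (-0.21 ± 0.19, adjusted p = 0.444, and 0.05 under total-count scaling). At 1 h RNA was 113 and 129.5 CPM with IAA, against 122.5 and 137 CPM with DMSO, and footprints were 33.6 and 45.0 CPM with IAA, against 35.2 and 39.85 CPM with DMSO. Both sets overlapped, with log2 fold changes of -0.10 ± 0.10 and 0.10 ± 0.12. The translation efficiency of BOI1 was 0.01 ± 0.20 at 8 h, with an interval of -0.375 to 0.39, and 0.12 ± 0.18 at 1 h.

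Their paralogs BOI2 and GIC2, for which no internal initiation was listed here, were called higher in footprints at 8 h (11.1% of all genes). GIC2 was also called higher in footprints at 1 h (11.1%). GIC2 footprints averaged 88.1 ± 0.157 CPM with IAA and 60.2 ± 1.87 CPM with DMSO at 1 h (SD, n = 2 each), a rise of 0.55 ± 0.09 (log2, adjusted p = 4.19e-06), and rose by 0.44 ± 0.17 at 8 h (adjusted p = 0.0451). BOI2 footprints at 8 h averaged 56.5 ± 11.5 CPM with IAA and 29.9 ± 13.7 CPM with DMSO (0.76 ± 0.20, adjusted p = 0.00403). The DMSO libraries held 20.2 CPM, from 32 counts in the shallowest library, and 39.6 CPM, from 365 counts. Alternative settings and leaving out single libraries were run for the 8 members only. Neither paralog passed in RNA or in translation efficiency. The difference between a member and its paralog was not tested. Of 13 polarity genes, the paralogs included, translation efficiency at 8 h was higher in 1 (3.45% of all genes), BEM2, a GTPase-activating protein (0.80 ± 0.22, adjusted p = 0.0408). At 1 h it was higher in 1 (9.88%), STE20, and lower in 3 (10.4%), RGA1 (-1.15), CLA4 (-0.42) and MSB3 (-0.73), of which RGA1 and MSB3 encode GTPase-activating proteins and CLA4 a kinase.

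URE2 encodes the inhibitor of the nitrogen regulators Gln3 and Gat1 and the protein of the prion [URE3]. Its RNA at 8 h was 109 and 116 CPM with IAA, against 75.1 and 90.7 CPM with DMSO. The groups did not overlap and the RNA rose by 0.44 ± 0.12 (log2, adjusted p = 0.0424). The 8 h call was lost with DESeq2 (0.42, adjusted p = 0.0506) and without IAA replicate 1 (0.49, adjusted p = 0.133), IAA replicate 2 (0.39, adjusted p = 0.193) or DMSO replicate 1 (0.32, adjusted p = 0.109). Its RNA at 1 h was 160.5 and 163 CPM with IAA, against 129.8 and 123 CPM with DMSO. Again the groups did not overlap and the RNA rose by 0.36 ± 0.07 (adjusted p = 0.00917), a call held under every alternative and without each single library.

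URE2 footprints with IAA lay above those with DMSO at both times, without passing the test. At 8 h they were 68.1 and 74.9 CPM with IAA, against 67.5 and 67.3 CPM with DMSO (0.09 ± 0.16, adjusted p = 0.757). At 1 h they were 53.7 and 61.0 CPM with IAA, against 47.3 and 52.8 CPM with DMSO (0.21 ± 0.10, adjusted p = 0.133, and 0.39 with an adjusted p of 0.0046 under total-count scaling). Translation efficiency had negative values at both times, -0.40 ± 0.19 at 8 h (adjusted p = 0.203) and -0.22 ± 0.125 at 1 h (adjusted p = 0.252). Of the nitrogen regulators, RNA was higher for GLN3 (0.46, adjusted p = 0.0269) and GZF3 (0.52, adjusted p = 0.0178) at 8 h and for GZF3 (0.55, adjusted p = 0.00331) at 1 h. GZF3, a repressor of the same genes, fell in translation efficiency at 1 h (-0.58 ± 0.18, adjusted p = 0.0393). GAT1 footprints rose at 8 h (0.78, adjusted p = 0.00545) and GLN3 footprints at 1 h (0.45, adjusted p = 0.0426). Of the 4 regulators listed, calls in RNA were 2 of 3 tested at 8 h (17.6% of all genes) and 1 of 4 at 1 h (42.8%). In footprints they were 1 of 3 tested at 8 h (24.1%) and 1 of 3 at 1 h (26.0%). In translation efficiency they were 0 of 3 tested at 8 h (5.48%) and 1 of 4 at 1 h (20.3%).

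YMR181C, a gene of unknown function, had the largest translation efficiency values of the 8 and the least certain ones. At 8 h its footprints were 4.29 and 6.48 CPM with IAA, against 3.79 and 10.8 CPM with DMSO, from 23 and 46 counts with IAA, against 6 and 100 with DMSO. The DMSO libraries stood on either side of the IAA libraries. Its RNA at 8 h was 28.2 and 27.3 CPM with IAA, against 19.0 and 21.8 CPM with DMSO, without overlap (0.44 ± 0.13, adjusted p = 0.0617, and 0.54 with an adjusted p of 0.0425 without DMSO replicate 2). Translation efficiency was -1.22 ± 0.41 (adjusted p = 0.0826). It was 0.07 without DMSO footprint replicate 2, and -1.48 (adjusted p = 0.0318) without DMSO footprint replicate 1, the shallowest library.

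At 1 h the footprints of YMR181C were 3.30 and 3.34 CPM with IAA, against 1.34 and 2.30 CPM with DMSO. The groups did not overlap, but the footprint difference (0.90 ± 0.43, adjusted p = 0.121) rested on 10 and 13 counts with IAA and 10 and 14 with DMSO. Its RNA at 1 h overlapped, at 11.6 and 14.6 CPM with IAA, against 14.05 and 20.1 CPM with DMSO (-0.38 ± 0.21, adjusted p = 0.181), and was called without DMSO replicate 1 (-0.62, adjusted p = 0.0208) but was -0.10 without DMSO replicate 2. Translation efficiency was 1.22 ± 0.53 (adjusted p = 0.129) and passed without RNA library DMSO replicate 1 (1.47, adjusted p = 0.0445), with a range of 0.86 to 1.63 without single libraries. The difference of translation efficiency between the times was -2.48 ± 0.71 (adjusted p = 0.0601). It was -1.165 without 8 h DMSO footprint replicate 2, and it passed when any of 3 other libraries was left out, at -2.69 without 1 h DMSO RNA replicate 1, -2.72 without 8 h DMSO footprint replicate 1 and -2.85 without 8 h IAA footprint replicate 2. The footprint difference between the times was -1.58 ± 0.66 (adjusted p = 0.126), -1.86 (adjusted p = 0.0305) without 8 h DMSO footprint replicate 1, and -0.36 without 8 h DMSO footprint replicate 2. Its paralog YPL229W was called in none of the comparisons.

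**Figure D3:**
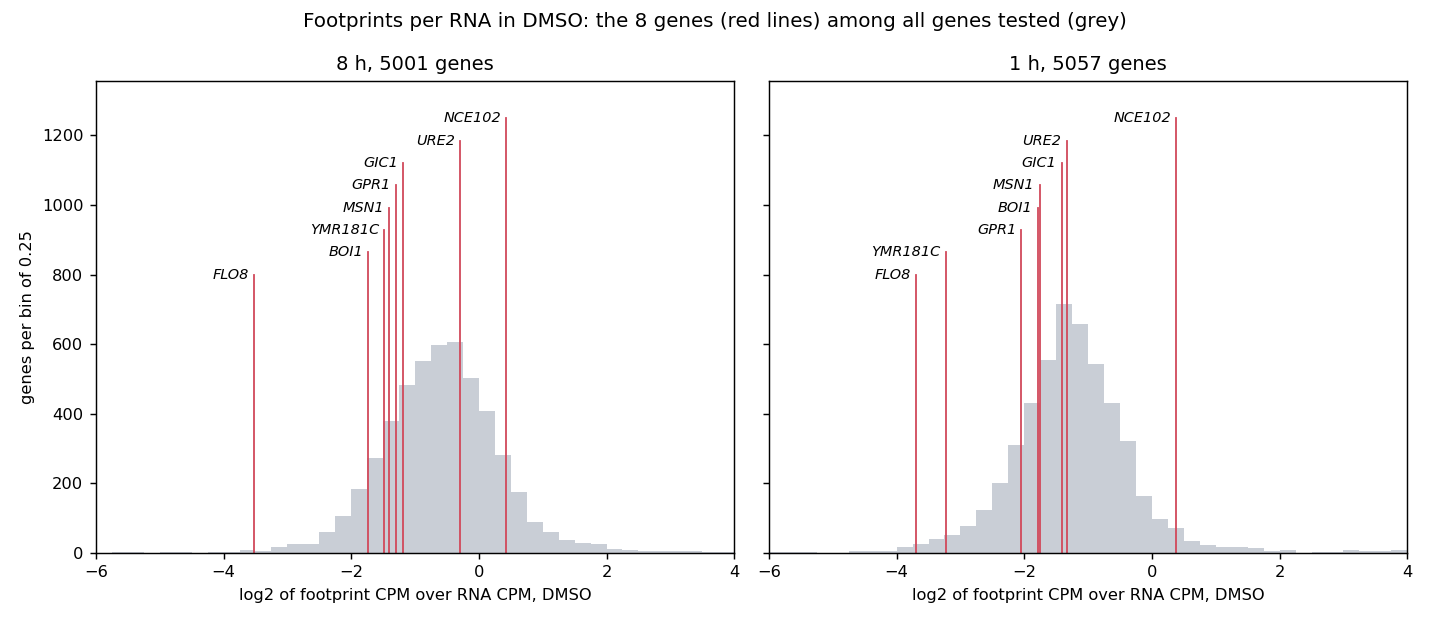
Distribution over all genes tested (grey bars, number of genes per bin of 0.25 log2 units) of the log2 ratio of mean footprint CPM to mean RNA CPM in DMSO libraries at 8 h (left) and 1 h (right), with the 8 genes as red lines; the few genes outside -6 to 4 are not drawn. FLO8 lies at the low end at both times (ratio 0.0868 and 0.0768) and NCE102 near the high end (1.35 and 1.299).

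From the lowest member to the highest, the ratio of footprints to RNA differed more than it changed with IAA in any 1 member. In DMSO libraries at 8 h it was lowest for FLO8 (0.0868) and then BOI1 (0.301), YMR181C (0.359), MSN1 (0.377), GPR1 (0.405), GIC1 (0.441), URE2 (0.814) and NCE102 (1.35), with a median of 0.664 over 5001 genes. Among all genes FLO8 ranked at 0.5% from the bottom and NCE102 at 89.3%. Ranges over the combinations of libraries overlapped between neighbours among BOI1, YMR181C, MSN1, GPR1 and GIC1, and were apart between FLO8 and BOI1, GIC1 and URE2, and URE2 and NCE102. In all, 6 members lay below the median of all genes at 8 h.

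In DMSO libraries at 1 h the order was FLO8 (0.0768), YMR181C (0.107), GPR1 (0.243), BOI1 (0.289), MSN1 (0.296), GIC1 (0.375), URE2 (0.396) and NCE102 (1.299), with a median of 0.416 over 5057 genes. Ranges of neighbours were apart only between YMR181C and GPR1 and between URE2 and NCE102. In all, 7 members lay below the median. These ratios compare footprints counted over 20 fewer codons with RNA of the whole gene. That lowers the ratio of short genes such as YMR181C, with 135 of 155 codons counted, more than that of long ones. The early stop codon of FLO8 stands beside its low ratio, and its part in it was not tested.

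With IAA the ratios at 8 h were 0.120 for FLO8, 0.194 for YMR181C, 0.314 for BOI1, 0.377 for MSN1, 0.379 for GPR1, 0.3995 for GIC1, 0.636 for URE2 and 1.23 for NCE102. With IAA at 1 h they were 0.0629 for FLO8, 0.253 for YMR181C, 0.277 for GPR1, 0.325 for BOI1, 0.326 for MSN1, 0.354 for URE2, 0.490 for GIC1 and 2.53 for NCE102. The largest changes with IAA were at 1 h, 2.37-fold for YMR181C, on few footprints, and 1.95-fold for NCE102. At 1 h NCE102 ranked at 96.9% of all genes with IAA, against 95.2% with DMSO. Per length, the RNA level of NCE102 stood above those of the other members. In 8 h DMSO libraries RNA was 908 CPM per kb of coding sequence for NCE102 (ranked at 96.3% of genes) and 77.8 for URE2, and between 21.6 (FLO8) and 53.7 (BOI1) for the other 6, against a median of 39.15 CPM per kb over all genes.

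**Figure D4:**
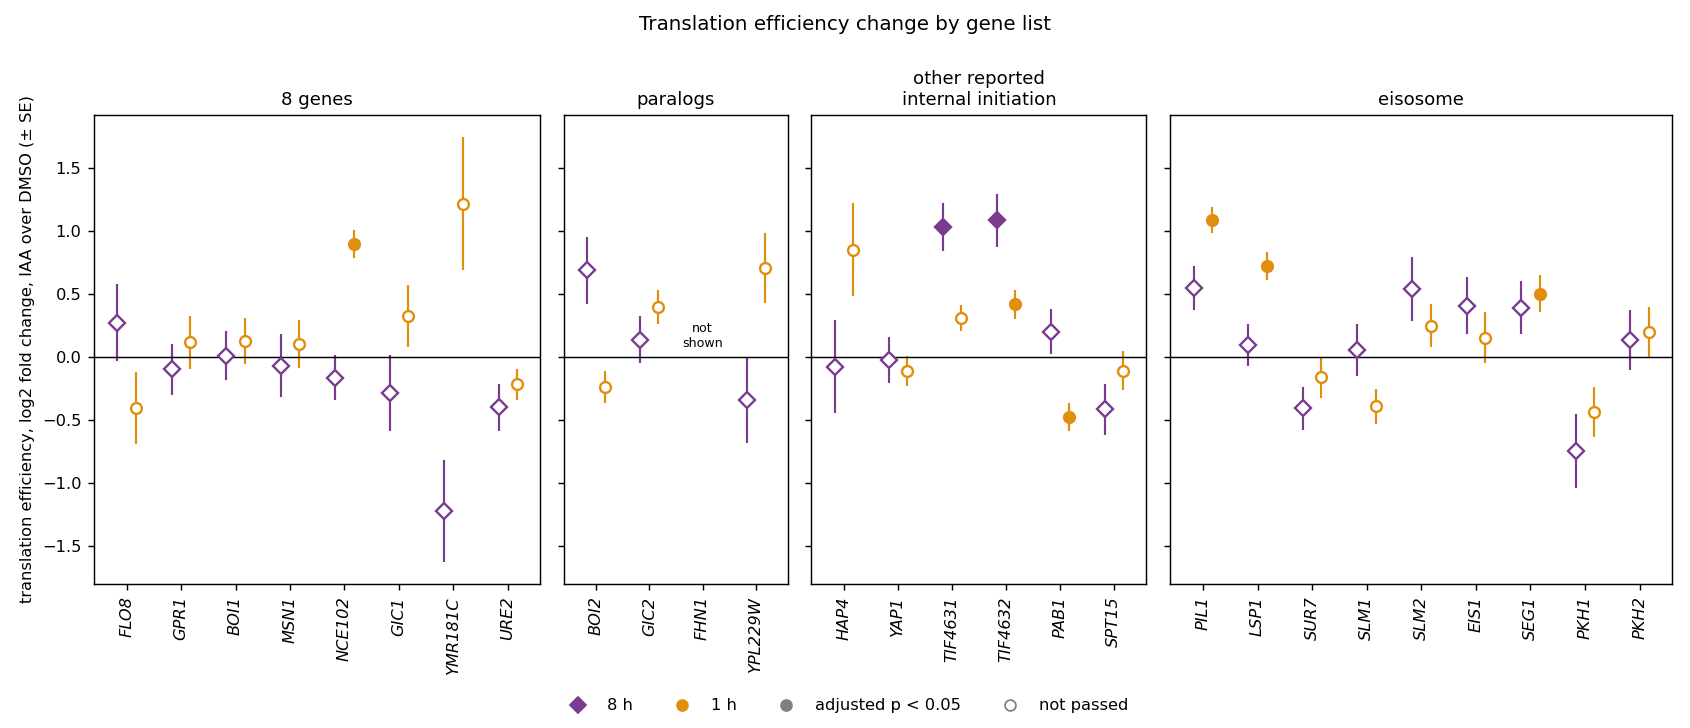
Translation efficiency change, log2 fold change of IAA over DMSO with SE (bars), at 8 h (diamonds) and 1 h (circles) for the 8 genes, their paralogs, 6 other genes reported with internal initiation and 9 eisosome genes; filled symbols passed an adjusted p of 0.05, and FHN1, with too few footprints, is not shown. The filled symbols at 1 h are NCE102, TIF4632, PAB1, PIL1, LSP1 and SEG1, and those at 8 h are TIF4631 and TIF4632 only.

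A further 6 yeast genes for which internal initiation has been reported were measured beside the members, HAP4, YAP1, TIF4631, TIF4632, PAB1 and SPT15. TIF4631 and TIF4632, which encode the 2 forms of eIF4G, rose in translation efficiency at 8 h by 1.03 ± 0.19 (log2, adjusted p = 0.00864) and 1.08 ± 0.21 (adjusted p = 0.00908), with lower RNA (-0.70 and -0.53) and higher footprints (0.38 and 0.62), all called. At 1 h TIF4632 was higher (0.42 ± 0.11, adjusted p = 0.0247) while PAB1, which encodes the poly(A)-binding protein, was lower (-0.48 ± 0.11, adjusted p = 0.0126), its footprints having fallen by 0.69 (adjusted p = 4.11e-14). Hence 2 of 6 were called at 8 h (5.48% of all genes) and 2 of 6 at 1 h (20.3%), in mixed directions at 1 h. HAP4, an activator of respiratory genes, rose in RNA at 8 h (0.81, adjusted p = 0.0137) and fell at 1 h (-0.95, adjusted p = 0.00803), and that difference between the times passed (1.74 ± 0.26, adjusted p = 0.0158). YAP1, a regulator of oxidative stress genes, was not called in either assay or in translation efficiency. SPT15, the TATA-binding protein gene, fell in footprints at 8 h (-0.60, adjusted p = 0.00337) and at 1 h (-0.39, adjusted p = 0.00395). Its RNA fell at 1 h (-0.34, adjusted p = 0.035). RNA at 1 h also fell for TIF4632 (-0.63, adjusted p = 0.00162) and TIF4631 (-0.42, adjusted p = 0.0104). With HAP4, RNA at 1 h was thus lower in 4 of the 6 (20.9% of all genes) and higher in 0 (21.9%). RNA at 8 h was higher in 1 (9.03%) and lower in 2 (8.61%). Footprints at 8 h were higher in 2 and lower in 1 (24.1% in either direction). Footprints at 1 h were higher in 0 and lower in 2 (26.0%). The translation efficiency of SPT15 was not called at 8 h (-0.42 ± 0.20, adjusted p = 0.226) or at 1 h (-0.11 ± 0.16, adjusted p = 0.693).

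For each member the most similar gene was found by distance over the 4 log2 fold changes (RNA and footprints at 8 h and 1 h) among 4902 genes tested in all 4 fits. The nearest gene to NCE102 was NHP6B (distance 0.15), with -0.60 in RNA and 0.45 in footprints at 1 h. The nearest to URE2 was VHR1 (0.047), with 0.42 and 0.33 in RNA at 8 h and 1 h. The others were AAP1 for FLO8 (0.051), YPT31 for GPR1 (0.087), ARP4 for BOI1 (0.027), HAL9 for MSN1 (0.078), SDH3 for GIC1 (0.111) and CRR1 for YMR181C (0.471). Only protein-coding genes could be neighbours, which left out FLO8. No member was the nearest gene of another member, which says little with 8 members among 4902 genes. YMR181C had the most distant neighbour.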

How the data were processed

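The authors deposited raw counts for each gene, without normalisation, from RNA-seq and ribosome profiling libraries. Tools named in the submitters' processing notes were STAR and cutadapt, with builds sacCer3 and R64. How reads were counted, and with which strand option, is not given in the sources used here. Footprint counts cover 20 codons fewer than the frame of each member, and where in a gene these codons lie was not established here. Counter lines naming no gene made up 21.7 to 31.2% of RNA reads and were left out. Depth sets precision: the members had 6 to 5325 footprint counts in a library. Replicates varied by more than counting error (chi-square over its degrees of freedom, 1.43 to 56.5), so none was a copy of another.

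Tests used edgeR 4.0.16 in R 4.3.3 (filterByExpr with a minimum count of 10, TMM, quasi-likelihood F test, Benjamini-Hochberg adjustment over all genes tested, calls at an adjusted p under 0.05). The edgeR code was also run on simulated counts in which every gene had the same dispersion. That run gives no measure of error rates in these libraries. Each assay and time had its own fit of 4 libraries, IAA over DMSO. For translation efficiency, 8 libraries were fitted with an agent-by-assay interaction, and time differences were interactions with time. That fit filtered both assays together, so genes could enter with too few footprints for the footprint tests. At 1 h it tested 6055 genes, against 5169 in footprints, and at 8 h 5442, against 5012. Shares of all genes in translation efficiency include such genes. FLO11, MGA1, FHN1 and, at 1 h, DAL80 were such genes in the lists. SE is the log2 fold change over the root of F. Sequences came from the RefSeq copy of build R64. The members, the gene lists and the rule for named genes (all members, paralogs, CDC33, up to 3 called genes per list, lowest adjusted p first, and nearest genes, with further list members and a-cell genes given after their values were seen) were chosen with earlier results of these data known. Alternatives were DESeq2 1.42.0, its size factors in edgeR, total-count scaling, no filter on low counts, a fit over all 8 libraries of an assay, replicate number or culture as a block, and leaving out each library. Figures were drawn with matplotlib 3.10.9 in Python 3.11.15.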

Additional observations from a re-analysis of the deposited data

Results flagged for a closer look

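The IAA effect on NCE102 differed between 8 h and 1 h, tested as the interaction of agent and time. The 8 h effect minus the 1 h effect was -0.55 in footprints and -1.08 in translation efficiency on the log2 scale. Each call was lost when 1 of 2 particular libraries was left out, and time and library preparation cannot be told apart.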

How the results depend on the processing

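Members called changed as follows. With DESeq2, 0 were called in RNA at 8 h (1 in edgeR), 4 in RNA at 1 h (5 in edgeR, MSN1 being lost) and 1 in the RNA difference between the times (0 in edgeR). With total-count scaling, 3 were called in RNA at 1 h (5 with TMM) and 3 in footprints at 1 h (1 with TMM). When single libraries were left out the counts ranged from 0 to 2 in RNA at 8 h, 0 to 1 in translation efficiency at 8 h, 1 to 2 in translation efficiency at 1 h, and 0 to 2 in the differences between the times of footprints and of translation efficiency. In RNA at 1 h the count was 4 without any single library, against 5 with all. Over all genes, total-count scaling called 2340 higher and 520 lower of 6247 in RNA at 1 h (1368 and 1307 with TMM). In footprints at 1 h it called 1588 higher and 290 lower of 5169 (575 and 768 with TMM). The share of all genes called with DESeq2, with a block or without single libraries was not computed. The cause of these changes was not tested.

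The labels do not say what a replicate number marks, and 2 numbers are too few to establish a pairing from the data. Deviations of same-numbered libraries had correlations of 0.342 (RNA 8 h), 0.6 (RNA 1 h), 0.041 (footprints 8 h) and 0.029 (footprints 1 h). With the replicate block 2 members were called in translation efficiency at 1 h (1 without it), 1 in the RNA difference (0) and 2 in the translation efficiency difference between the times (1), also 2 with culture as the block, which left translation efficiency at 1 h at 1. The added gene was YMR181C, at 1.17, 0.80 and -2.25 (adjusted p = 0.0477, 0.0448 and 0.0418), and it was also called in RNA at 1 h (-0.37, adjusted p = 0.0132).

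These signs, none from a called value, turned. With total-count scaling, footprints at 8 h were 0.051 for BOI1, 0.086 for NCE102 and 0.153 for GIC1, translation efficiency at 8 h was 0.013 for MSN1, RNA at 1 h was 0.168 for FLO8 and 0.119 for BOI1, footprints at 1 h were 0.088 for GIC1, and the RNA difference was -0.098 for URE2. The footprint difference of GIC1 was 0.066 with DESeq2, 0.031 with its size factors, 0.048 with total counts and 0.063 with the replicate block, which also gave -0.008 for BOI1 translation efficiency at 8 h and -0.001 for the GPR1 footprint difference.

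Without single libraries the values crossed 0 for GIC1 RNA (-0.064 to 0.25) and footprints at 8 h (-0.296 to 0.2), YMR181C footprints at 8 h (-0.989 to 0.504), and translation efficiency at 8 h of BOI1 (-0.117 to 0.205), MSN1 (-0.147 to 0.062), GIC1 (-0.506 to 0.1) and YMR181C (-1.597 to 0.072). At 1 h they did so for footprints of BOI1 (-0.152 to 0.268) and GIC1 (-0.258 to 0.057) and translation efficiency of GPR1 (-0.06 to 0.318), BOI1 (-0.111 to 0.312) and MSN1 (-0.113 to 0.268). Between the times they did so for RNA of MSN1 (-0.114 to 0.006) and URE2 (-0.058 to 0.207), footprints of GPR1 (-0.163 to 0.222), MSN1 (-0.352 to 0.022) and GIC1 (-0.208 to 0.324), and translation efficiency of BOI1 (-0.322 to 0.112) and MSN1 (-0.359 to 0.034).

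Scaling also set the split of calls over all genes. With total counts the share of calls that were higher was 64.4% in RNA at 8 h (51.2% with TMM), 87.1% in footprints at 8 h (45.9%), 78.1% in translation efficiency at 8 h (63.1%), 81.8% in RNA at 1 h (51.1%) and 84.6% in footprints at 1 h (42.8%). For the differences between the times it was 29.9% in RNA (65.6%), 73.9% in footprints (62.2%, and 70.6% with DESeq2 size factors) and 66.1% in translation efficiency (48.0%, and 58.3%). Depth limited FLO8 and YMR181C most, with as few as 6 footprint counts in a library.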
